A study of Capra hircus with 11 samples.

Results

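The microRNAs miR-132 and miR-212 were followed in the omental fat of lactating goats that had lost their feed for 48 h. They were found by name in the deposited lists, which use bovine names: of the 637 listed miRNAs 2 carried either number on any arm, bta-miR-132 and bta-miR-212. Neither name gave an arm of the hairpin. Both passed the filter on low reads and were among the 360 miRNAs tested. The pair was chosen by its joint variation over the libraries and its difference in normalised reads between the feeding groups, so both are described here without a test of their own.

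All 11 goats (Capra hircus) were lactating Alpine animals at the peak of lactation, 48 ± 2 days after giving birth at the start of the trial, and all had been fed hay and concentrate at 35:65 for 2 weeks beforehand. In the 6 feed-deprived goats feed was withheld for the 48 h before slaughter. The 5 control goats had free access to the same diet over that time. Small RNA of omental adipose tissue, the fat of the fold that hangs from the stomach, was sequenced in 1 library per goat. Per the labels no batch, pairing or age was given, and the replicate numbers used here only name the goats of a group in accession order.

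Animal miR-132 and miR-212 are known to be cut from 1 primary transcript whose promoter carries binding sites for CREB, the transcription factor that is phosphorylated when cAMP or calcium signalling rises. In human and mouse the 3p arms of both hairpins share a seed and therefore many predicted targets. Whether both deposited names count that arm was not settled here. They are best studied in neurons, where they respond to activity and act on dendrite growth, and miR-132 has also been studied in endothelial, immune and fat cells. In adipose tissue cAMP is the messenger by which catecholamines start the breakdown of stored fat. Neither CREB nor cAMP was measured in these goats. In whole tissue, more RNA per cell and more cells of one type cannot be told apart.

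The libraries held 18281521 to 25389788 miRNA reads in feed-deprived goats and 16974441 to 22642536 in control goats. Feed-deprived replicate 1 had the most reads, and its 10 leading miRNAs took 73.7% of them, against 77.5% to 83.5% in the other feed-deprived goats and 80.3% to 82.5% in the controls. Levels are given as normalised reads, the recovered whole reads of a miRNA divided by 1 factor per library that the authors had applied. The reads carry no molecular identifiers that the labels mention, so the 95% counting intervals cover counting error only. The fit across the 360 tested miRNAs used limma on log2(normalised reads + 1), with Benjamini-Hochberg adjustment and a threshold of 0.05. No marker list of fat cells was used. Of the marker miRNAs listed, miR-143, typical of mesenchymal tissue, was the most abundant in both groups, and the liver miRNA miR-122 did not exceed 175 reads in any library.

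miR-132, the more abundant of the pair, was higher in every feed-deprived goat than in any control. It stood at 2320, 1088, 681, 1004, 645 and 735 normalised reads in feed-deprived replicates 1 to 6, against 530, 552, 332, 442 and 359 in control replicates 1 to 5. The lowest feed-deprived value, that of replicate 5, thus lay above the highest control value, that of replicate 2, while replicate 1 had more than double the level of any other goat. Its mean was 1079 ± 634 normalised reads in feed-deprived goats (SD, n = 6) and 443 ± 98.5 in control goats (SD, n = 5), a ratio of means of 2.44 and of medians of 1.97. On the log2 scale the difference was 1.15 ± 0.309 (SE). As a share of the library miR-132 was small, at 32.9 to 151 CPM in feed-deprived goats and 13.5 to 24.4 CPM in controls, CPM being the reads in a library scaled to 1000000. By level it ranked 102nd to 137th of the listed miRNAs in feed-deprived goats, and 136th to 164th in controls.

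miR-212, the rarer partner, had a difference of like size but overlapping groups. It stood at 307, 145.1, 85.7, 310, 117 and 71.6 normalised reads in feed-deprived replicates 1 to 6, against 108, 53.2, 70.6, 69.0 and 47.8 in control replicates 1 to 5. Feed-deprived replicates 1, 2, 4 and 5 lay above all controls, whereas replicates 3 and 6 fell within the control range. The mean was 173 ± 108 normalised reads in feed-deprived goats (SD, n = 6) and 69.8 ± 23.8 in control goats (SD, n = 5), a ratio of means of 2.47 and of medians of 1.90. The log2 difference was 1.12 ± 0.396 (SE). The values rested on 82 to 506 reads per library in feed-deprived goats, 1249 in all, and on 40 to 85 in controls, 309 in all.

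**Figure D1:**
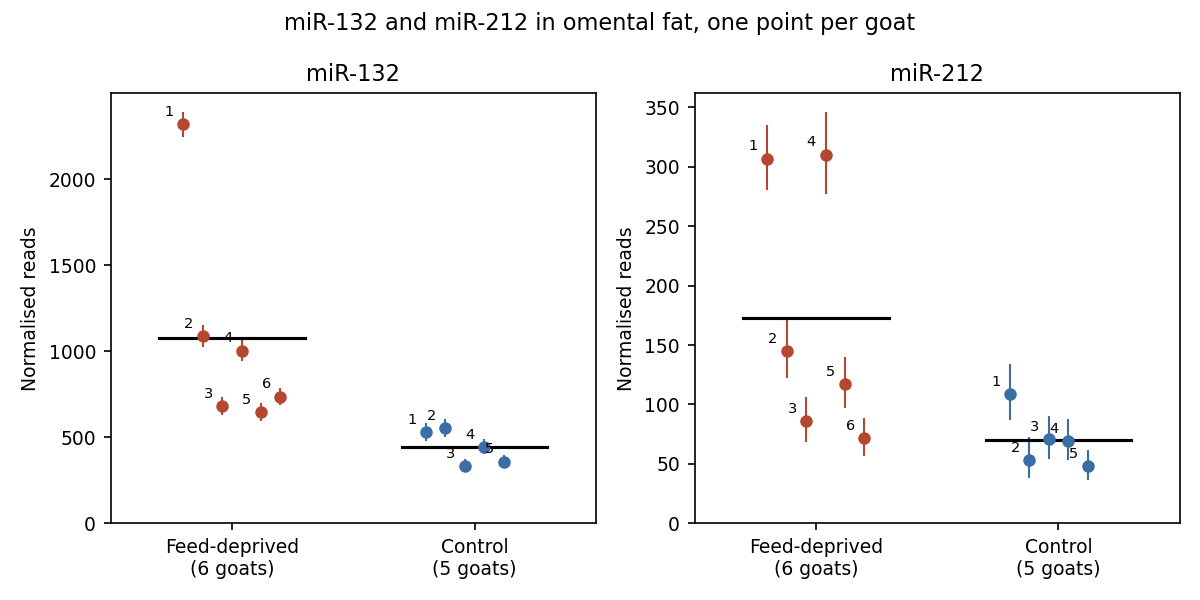
Normalised reads of miR-132 (left) and miR-212 (right) in each goat, feed-deprived in red and control in blue, with exact Poisson 95% counting intervals as vertical bars, replicate numbers beside the points and group means as black lines. For miR-132 the groups do not overlap and feed-deprived replicate 1 stands at 2320; for miR-212 feed-deprived replicates 1 and 4, at 307 and 310, are highest, and replicates 3 and 6 lie among the controls.

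Among all tested miRNAs these differences sat near the upper end. The log2 difference of miR-132 ranked 10th of 360 from the highest and that of miR-212 ranked 12th. The median over the 360 was 0.00397, 15 miRNAs had a log2 difference of 1 or more, and the middle 90% ran from -0.55 to 0.85. Groups that did not overlap, with feed-deprived goats higher, were found for 6 miRNAs, which is 1.67% of those tested, and miR-132 was one of them. At least 4 feed-deprived goats above all controls, the pattern of miR-212, were found for 30 miRNAs, or 8.33%. Over the whole table limma called 3 miRNAs higher (0.833%) and 0 lower, and 0 of the 2 described here were among them, although both had an unadjusted p under 0.05, as did 42 of the 360 (11.7%). edgeR's quasi-likelihood test on the recovered reads also called 0 of the 2 (0.833% of all called higher), and DESeq2 called miR-132 alone (2.5% of all called higher). Since the contrast had a part in choosing the pair, these counts are given as a description only.

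The spread between goats was far wider than counting error. In log2 units miR-132 had an SD of 0.69 in feed-deprived goats and 0.33 in control goats, while counting alone would give 0.047 and 0.073. For miR-212 the SDs were 0.898 in feed-deprived goats and 0.45 in controls, against 0.12 and 0.19 from counting. With the group means removed, the residual SD was 0.56 for miR-132 and 0.73 for miR-212, where the median of all tested miRNAs was 0.43. miR-212 thus ranked 56th of 360 in spread, and miR-132 ranked 111th.

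No single goat accounted for the whole difference of either miRNA. Without feed-deprived replicate 1 the log2 difference was 0.902 for miR-132 and 0.908 for miR-212. The ratio of means of miR-132 was then 1.88 and that of miR-212 was 2.09. Without feed-deprived replicate 4 miR-132 stayed at 1.14, and miR-212 came to 0.905, its lowest value with 1 goat left out. The other 9 omissions gave 1.06 to 1.27 for miR-132 and 1.0003 to 1.33 for miR-212. With library totals as the scaling the median log2 difference of all tested miRNAs shifted to 0.16, and miR-132 and miR-212 stood 1.15 and 1.12 above it. As CPM, without the authors' scaling, the ratio of means was 2.91 for miR-132 and 2.89 for miR-212, and without feed-deprived replicate 1 it was 2.01 and 2.21.

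**Figure D2:**
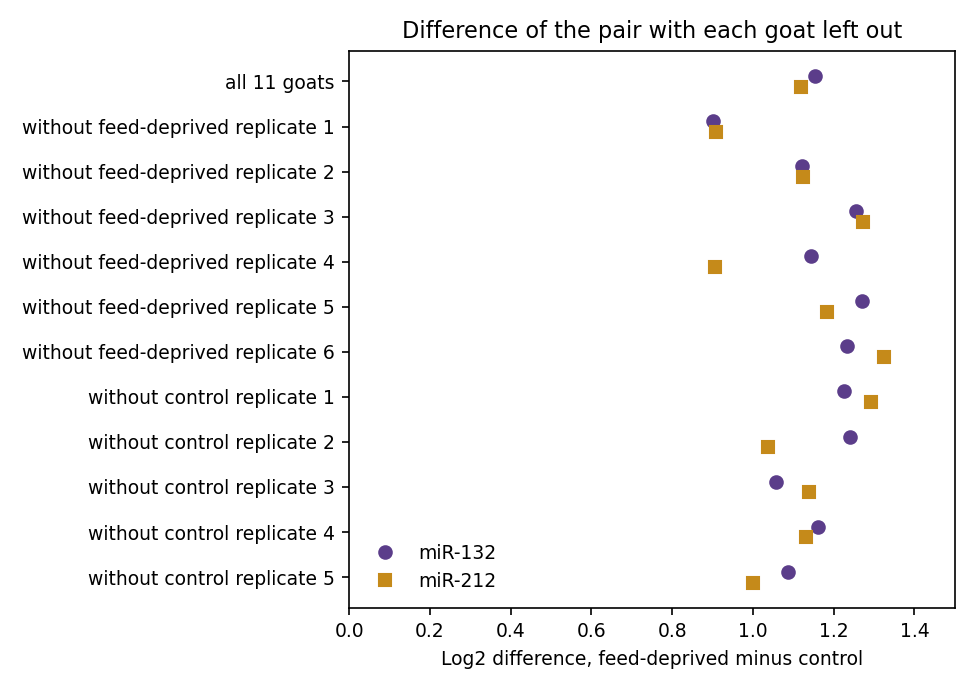
Log2 difference between feed-deprived and control goats for miR-132 (circles) and miR-212 (squares), with all 11 goats and with each goat left out in turn. All values lie between 0.902 and 1.33; leaving out feed-deprived replicate 1 lowers both, and leaving out feed-deprived replicate 4 lowers miR-212 to 0.905 and leaves miR-132 at 1.14.

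The proportion of the pair showed little difference between the feeding groups. Which arm bta-miR-212 counts was not settled, so the ratio may set unlike arms of the hairpins side by side. For each read of miR-212 there were 7.003 ± 2.39 reads of miR-132 in feed-deprived goats (SD, n = 6) and 6.77 ± 2.32 in control goats (SD, n = 5), a difference of 0.025 on the log2 scale. The single ratios were 7.56, 7.50, 7.95, 3.24, 5.51 and 10.3 in feed-deprived replicates 1 to 6, against 4.88, 10.4, 4.70, 6.41 and 7.51 in control replicates 1 to 5. The ranges of the groups overlapped almost entirely. The ratio did differ among goats by more than counting error, since its exact binomial 95% interval was 2.85 to 3.68 in feed-deprived replicate 4 and 8.18 to 13.0 in feed-deprived replicate 6. Feed-deprived replicate 4, with 317 reads of miR-212 beside 1026 of miR-132, had the lowest ratio of all goats. In feed-deprived replicate 1, where miR-132 was highest, the ratio was close to that of feed-deprived replicates 2 and 3, so both miRNAs were high there in about the same proportion.

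**Figure D3:**
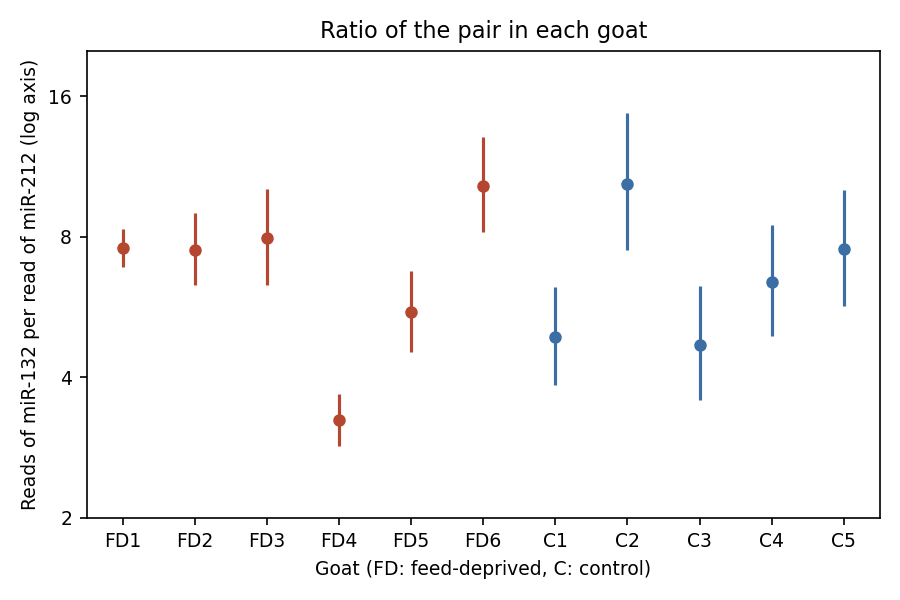
Reads of miR-132 per read of miR-212 in each goat on a log axis, feed-deprived (FD, red) and control (C, blue), with exact binomial 95% intervals as bars. Both groups spread over the same range, and feed-deprived replicate 4 is lowest at 3.24.

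Over the 11 goats, with group means removed, the 2 miRNAs varied together to a moderate degree. After the mean of each group was taken from the log2 values, Pearson's r over the 11 goats was 0.70 and Spearman's rho was 0.55. Within the 6 feed-deprived goats r was 0.77 and rho 0.60. Within the 5 controls r was 0.32 and rho 0. Either group alone has too few goats to read. A pooled value without centring is not given, because the feeding groups do not overlap for miR-132. Feed-deprived replicate 1 was high for both miRNAs, feed-deprived replicates 3, 5 and 6 were low for both, and feed-deprived replicate 4 was high for miR-212 alone. Leaving out feed-deprived replicate 1 brought the centred r to 0.54, and leaving out replicate 4 brought it to 0.80. Without the 2 goats farthest from the median of miR-132, feed-deprived replicates 1 and 5, it was 0.56. Each point is 1 library, so both values share its depth and scaling factor.

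**Figure D4:**
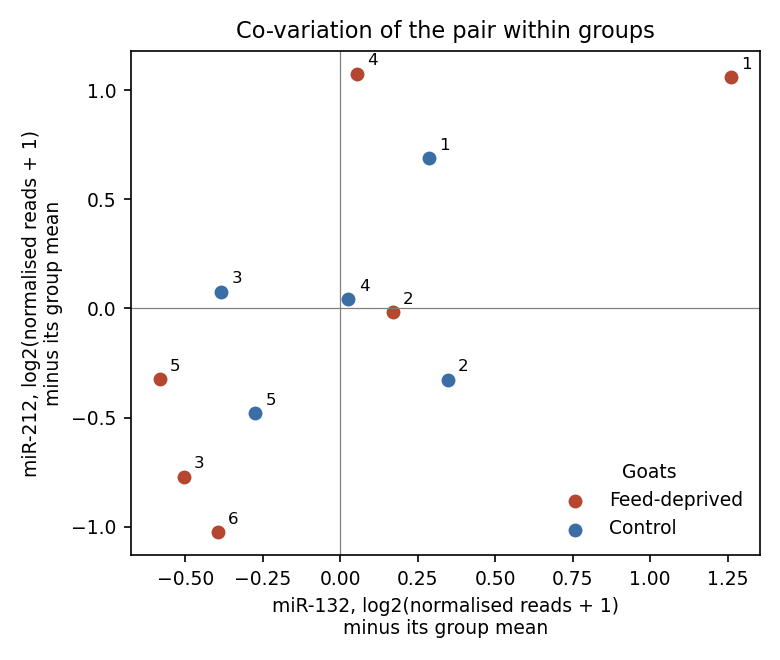
Log2 level of miR-212 against that of miR-132, each minus its group mean, for the 6 feed-deprived (red) and 5 control (blue) goats, numbered by replicate. Feed-deprived replicate 1 is high on both axes and feed-deprived replicate 4 on that of miR-212 only; r over the 11 goats is 0.70.

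By r over these 11 goats, other miRNAs ranked above the partner for each member. Likeness was measured as Pearson's r of the centred log2 values over the 11 goats, and companions were named among miRNAs with a mean of at least 10 CPM. Over the 359 other tested miRNAs the median r with miR-132 was 0.02, and miR-212, at 0.70, ranked 18th. Seen from miR-212, the median was 0.01 and miR-132 ranked 19th. The 5th to 95th percentiles of r ran from -0.71 to 0.69 with miR-132 and from -0.65 to 0.70 with miR-212. The companions are the highest of many r values over 11 goats, and whether they exceed the partner was not tested. The 5 miRNAs most like miR-132 and the 5 most like miR-212 had 0 names in common.

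The 5 nearest to miR-132 were miR-15b (r = 0.88), miR-17-5p (0.83), miR-365-3p (0.81), miR-27a-5p (0.78) and miR-222 (0.75). miR-15b belongs to the miR-15/16 family of cell cycle regulators and miR-17-5p to the proliferation-linked miR-17-92 cluster. For 4 of the 5 this likeness leaned on feed-deprived replicate 1, miR-15b being the exception: without that goat r was 0.81 for miR-15b, 0.60 for miR-17-5p, 0.54 for miR-222, 0.45 for miR-365-3p and 0.02 for miR-27a-5p. Their levels differed between the groups less than that of miR-132 did. miR-15b had 661 ± 257 normalised reads in feed-deprived goats (SD, n = 6) and 427 ± 125 in control goats (SD, n = 5), a log2 difference of 0.59 (limma adjusted p = 0.423). For miR-17-5p the log2 difference was 0.54 (limma adjusted p = 0.342), for miR-27a-5p 0.96 (0.324), for miR-222 0.39 (0.830) and for miR-365-3p -0.16 (0.834). The value of miR-27a-5p was 0.61 without feed-deprived replicate 1, and that of miR-222 was 0.14. miR-365-3p was at 0.0028 with library totals as the scaling.

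The 5 nearest to miR-212 were miR-409a (r = 0.93), miR-154c (0.83), miR-410 (0.82), miR-432 (0.82) and miR-1260b (0.81). miR-409a, miR-410 and miR-432 are members of the imprinted DLK1-DIO3 cluster of miRNAs. MIR409, MIR410 and MIR432 lie on chromosome 21 of the goat assembly ARS1.2, where MIR409 carries no letter. MIR409 starts at 65227556 and MIR410 at 65228159, so these companions are not all separate loci. With any 1 goat left out the lowest r was 0.91 for miR-409a and 0.73 to 0.75 for the other 4. The 5 were picked for high r in these same goats, so this is no test of the likeness. Within the controls r was 0.83 for miR-409a, 0.53 for miR-154c, 0.61 for miR-410, 0.85 for miR-432 and 0.45 for miR-1260b. Their levels differed between the groups to unequal degrees. miR-1260b had 459 ± 222.6 normalised reads in feed-deprived goats (SD, n = 6) and 159 ± 54.9 in control goats (SD, n = 5), a log2 difference of 1.44 (limma adjusted p = 0.074, and 0.0019 to 0.16 over the alternatives, of which DESeq2, library totals and the fit without feed-deprived replicate 6 called it). miR-410 had a log2 difference of 0.75 (limma adjusted p = 0.268), miR-432 of 0.64 (0.584) and miR-154c of 0.28 (0.737), the last 0.16 without feed-deprived replicate 4. The closest companion, miR-409a, had 607 ± 353 normalised reads in feed-deprived goats and 601 ± 140 in control goats, with a log2 difference of -0.14 (limma adjusted p = 0.963) that was 0.023 with library totals. Without feed-deprived replicate 4, which was high for miR-212 and for miR-432, the value of miR-432 was 0.37 and that of miR-409a was -0.37.

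Pairs of miRNAs made from shared or adjoining genes are set beside miR-132 and miR-212 as a description. The joint variation of miR-132 and miR-212 had a part in choosing them, so their place among these pairs is no test. Of 17 such pairs listed, 16 had both members tested, and their r of centred values had a median of 0.67 and a range of -0.15 to 0.85. In 7 of the 16 the r was higher than the 0.70 of miR-132 and miR-212. Some pairs were named because their summed reads were nearest to the reads of miR-132 alone. Among these, r was 0.84 for miR-17-5p and miR-20a, 0.73 for miR-424-5p and miR-503-3p, and 0.78 for miR-450a and miR-542-5p. Among the 3 most abundant pairs it was lower, at 0.27 for miR-143 and miR-145, 0.42 for miR-191 and miR-425-5p, and -0.15 for miR-30b-5p and miR-30d. The vascular pair miR-221 and miR-222 had 0.81. Without feed-deprived replicate 1, r of miR-424-5p and miR-503-3p was 0.28, and that of miR-191 and miR-425-5p was 0.15.

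The log2 differences of miR-132 and miR-212 were 0.035 apart, against a median gap of 0.158 in the other 16 pairs. In 0 of the 16 was the gap smaller, with 0.046 for miR-450a and miR-542-5p and 0.047 for miR-17-5p and miR-20a as the next. The SE of each difference, 0.309 and 0.396, is far larger than that gap, so the order of the smallest gaps is not resolved by these goats. Both miRNAs of the pair also had a larger positive difference than either member of any other pair. The nearest were miR-144 and miR-451, of red blood cells, at 0.85 and 0.62. Since this contrast had a part in choosing miR-132 and miR-212, their rank by difference or gap is a description only.

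**Figure D5:**
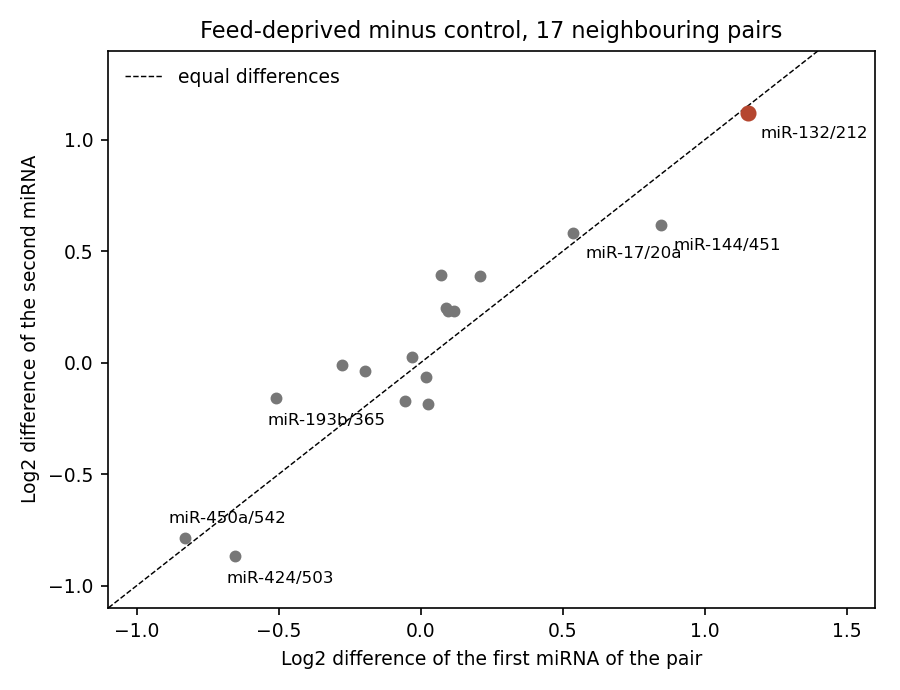
Log2 difference between feed-deprived and control goats for the second miRNA of each pair against the first, for miR-132 and miR-212 (red) and 16 other pairs from shared or adjoining genes (grey), with a dashed line for equal differences. The red point lies on the line at 1.15 and 1.12, beyond all grey points at the upper right.

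Other miRNAs linked to CREB or cAMP were too few among those tested for a count of calls to set them apart. The list held 10 entries, such as miR-34b and miR-34c, which CREB is known to induce, and miR-134, miR-182 and miR-124, which act on CREB1 mRNA or respond to neuronal activity. It matched 10 listed miRNAs, of which 5 were tested. limma called 0 of these 5, 0 had an unadjusted p under 0.05, and edgeR and DESeq2 also called 0. Of all 360 tested, limma and edgeR called 0.833% each, DESeq2 called 2.5%, and 11.7% had an unadjusted limma p under 0.05. With shares this low, 0 of 5 does not separate the list from the other miRNAs. The median log2 difference was 0.66, the value of miR-134 itself, which had at most 37 reads in a library. The median over all tested miRNAs was 0.00397. Of the 5, 4 were positive and 1 negative (50.8% of all tested were positive). miR-433, also of the DLK1-DIO3 region, had 19.5 ± 7.79 normalised reads in feed-deprived goats (SD, n = 6) and 12.3 ± 8.65 in control goats (SD, n = 5), a log2 difference of 0.82 (limma adjusted p = 0.486). miR-375, a miRNA of endocrine and epithelial cells, had a log2 difference of 1.09 (limma adjusted p = 0.637), and 0.64 without feed-deprived replicate 6. miR-134 stood at 0.66 (limma adjusted p = 0.872) with all goats and at 0.01 when control replicate 2 was left out. miR-34c, the most abundant of the list, had 116 ± 43.3 normalised reads in feed-deprived goats and 105 ± 58.4 in control goats, a log2 difference of 0.23 (limma adjusted p = 0.916) that was 0.059 when control replicate 1 was left out. miR-34b, too rare to be tested, had at most 9 reads in a library, so it gave no comparison with the pair at this depth.

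Of 11 tested miRNAs linked to inflammation in fat, limma called 0 in either direction, 3 had an unadjusted p under 0.05 (11.7% of all tested did), and edgeR and DESeq2 called 0. Of all tested, limma and edgeR called 0.833% each and DESeq2 2.5%, so 0 of 11 does not set the list apart. The median log2 difference of the 11 was 0.26, with 8 positive and 3 negative (9 positive with library totals), where 50.8% of all tested were positive. miR-21-5p, abundant in inflamed and fibrotic tissue, had 234665 ± 78396 normalised reads in feed-deprived goats (SD, n = 6) and 134545 ± 43611 in control goats (SD, n = 5), a log2 difference of 0.80 (limma adjusted p = 0.218). miR-155, switched on when immune cells are activated, had 0.40 (limma adjusted p = 0.423), miR-21-3p had 1.18 (0.479; 0.74 without control replicate 2), and miR-193b, which inflammation represses in human fat cells, had -0.51 (0.258).

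Leukocyte markers also had higher values in the contrast that chose the pair. All 6 of 6 listed were tested, all 6 had a positive log2 difference, with a median of 0.60, and none was at 0 in any library. Over all 360 tested miRNAs 50.8% were positive. limma and edgeR called 1 of the 6 higher, miR-142-5p, the most abundant (0.833% of all tested in each), and DESeq2 also called miR-223 (2.5% of all tested). An unadjusted limma p under 0.05 was found for 4 of the 6, against 11.7% of all tested. miR-142-5p had 28704 ± 5802 normalised reads in feed-deprived goats (SD, n = 6) and 16568 ± 2857 in control goats (SD, n = 5), a log2 difference of 0.79 (limma adjusted p = 0.037, and 0.0030 to 0.099 over the alternatives). This call was lost with no filter, at a mean of 10 CPM or more and without the variance trend (limma adjusted p = 0.055, 0.053 and 0.099), and also without feed-deprived replicates 1, 4 or 5 or control replicates 2, 3, 4 or 5, while the log2 difference stayed between 0.698 and 0.85 with any 1 goat left out. Summed, the leukocyte list ran from 42656 to 61575 normalised reads in feed-deprived goats and from 31301 to 37881 in controls, without overlap. Single miRNAs did so, with feed-deprived goats higher, in 1.67% of those tested. miR-142-5p was among them, at 22774 or more in feed-deprived goats and 19620 or less in controls. No such share was taken for sums. The sum, much of it miR-142-5p, was 54245, 46123, 42656, 60421, 46219 and 61575 in feed-deprived replicates 1 to 6, against 37881, 34662, 31301, 32368 and 35536 in control replicates 1 to 5. miR-223, a myeloid miRNA with the largest log2 difference of the list, had 3458, 785, 725, 804, 595 and 963 normalised reads in feed-deprived replicates 1 to 6, against 753, 242, 225, 86.2 and 164 in control replicates 1 to 5. Its highest value was in feed-deprived replicate 1, the goat with the highest miR-132. The log2 difference of miR-223 was 2.12 (limma adjusted p = 0.074, and 0.0071 to 0.173 over the alternatives, of which DESeq2, library totals and the fit without control replicate 1 called it). It was 1.76 without feed-deprived replicate 1 and 2.55 without control replicate 1. The part of leukocytes in the levels of miR-132 and miR-212 was not tested.

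Markers of neurons are of interest because miR-132 and miR-212 are abundant there. Of 13 listed, 3 were tested and limma, edgeR and DESeq2 called 0 of them, with 0 at an unadjusted p under 0.05. All 3 had a positive log2 difference, with a median of 0.16. Of all 360 tested, limma and edgeR called 0.833% each and DESeq2 2.5%. An unadjusted limma p under 0.05 was found for 11.7% of them, and 50.8% were positive. Counts in lists as short as this one and that of red blood cells do not set them apart. The 3 neuronal markers tested were miR-128, miR-138, with up to 220 reads in a library, and miR-153, with up to 48. miR-124a and miR-124b, which carry identical values and are the defining miRNAs of neurons, had at most 2 reads in any library, and miR-137 had 0 in every feed-deprived goat and at most 1 in a control. The summed list ran from 399.8 to 593 normalised reads in feed-deprived goats and from 364 to 629 in controls, most of it miR-128, which is not restricted to neurons. The red blood cell list, led by miR-486, had 3 of 3 positive and 0 called by limma, edgeR or DESeq2 (1 at an unadjusted p under 0.05), and its sums overlapped, at 131837 to 348041 in feed-deprived goats and 116344 to 331505 in controls.

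The endothelial list, led by miR-126-5p, had 2 of 2 negative log2 differences (1 of 2 with library totals), with sums of 502282 to 611349 in feed-deprived goats and 532670 to 639644 in controls. In the mesenchymal list, led by miR-143, 5 of 5 were negative (2 of 5 with library totals). Striated muscle, led by miR-133a, had 1 positive and 2 negative of 3 (2 positive with library totals), and the epithelial list, led by miR-141, had 2 of 2 positive. In these 4 lists limma, edgeR and DESeq2 called 0 miRNAs and 0 had an unadjusted p under 0.05. Of all 360 tested, limma and edgeR called 0.833% each and DESeq2 2.5%, 11.7% had an unadjusted limma p under 0.05, and 50.8% were positive. Counts of 0 in lists this short do not set them apart. None of the listed markers of these 4 lists was at 0 in every library, and their part in the levels of the pair was not tested.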

How the data were processed

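Per the labels' protocols, TruSeq Small RNA libraries (13 PCR cycles) were read as single 50-base reads on a HiSeq sequencer. How reads were trimmed, matched and normalized is not stated in the labels used here. The authors deposited 1 signal per mature miRNA and library under bovine names, so goat sequences that differ from bovine ones may be undercounted. The deposited signal values of each library were whole multiples of its lowest non-zero value (100% within 0.001 read), so reads could be recovered. 1 read was worth 0.607 to 1.33 normalised reads, and the factors matched DESeq2's within ratios of 0.998 to 1.003. Of 629 miRNAs listed in all libraries, 360 passed edgeR's filterByExpr at 10 reads. limma 3.58.1 (R 4.3.3, variance trend, robust moderation, two-sided) was run on log2(value + 1), which understates changes of low miRNAs. edgeR 4.0.16 and DESeq2 1.42.0 ran on recovered reads as alternatives, as did pseudocounts of 0.5 and 5, 2 other filters, 3 other scalings and leaving out each goat. The plan's limma branch applied because the values were normalized.

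The members and lists were chosen with earlier results of these data known. Named were the pair, the 5 miRNAs most like each (10 CPM or more), the 4 lowest p-values of the CREB and inflammation lists, 6 pairs and each marker list's most abundant member. miR-221 with miR-222, miR-144 with miR-451, and further marker miRNAs were added after values were seen. No sequence of either miRNA was used here.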

Additional observations from a re-analysis of the deposited data

Results flagged for a closer look

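In 74 sets of values, each of 1 measure in 1 group, a goat set well apart from its group was found in 12. The flag used normalised reads without logs, and all 12 flags were on the high side. The sets are not independent, because some of the miRNAs were named for varying with the pair. No chance rate is therefore set against this count. Within the pair this was feed-deprived replicate 1, with 2320 normalised reads of miR-132 against 645 to 1088 in the other feed-deprived goats. The same goat stood apart for miR-27a-5p, at 1008 against 198.7 to 276, and for miR-222, at 8090 against 1926 to 4134. Both are among the miRNAs most like miR-132. It also stood apart for the myeloid miR-223, at 3458 against 595 to 963.

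Feed-deprived replicate 4, which had the highest miR-212, stood apart for miR-432, at 1152 normalised reads against 267 to 533, for miR-433, at 35.2 against 14.8 to 18.2, and for miR-134, at 36.2 against 2.09 to 10.1. Feed-deprived replicate 6 had 265 normalised reads of miR-375 against 20.02 to 63.9. Control replicate 1 had 6056 of miR-222 against 1728 to 2846, and 753 of miR-223 against 86.2 to 242. The liver marker miR-122 was high in feed-deprived replicate 5, at 84.6 against 3.91 to 13.6, and in control replicate 5, at 146.7 against 1.08 to 38.6.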

How the results depend on the processing

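The log2 differences of miR-132 and miR-212 moved by less than the residual SD under every alternative run (0.902 to 1.32 and 0.905 to 1.33, leaving out 1 goat included). The number of miRNAs called higher, 3, became 0 at a mean of 10 CPM or more, 7 with library totals, 9 in DESeq2 and 1 to 4 with 1 goat left out (1 without feed-deprived replicates 1, 4 or 5 or control replicates 2, 3 or 5). The number called lower, 0, became 1 with upper-quartile factors and with library totals, and was 0 to 1 with 1 goat left out. The likeness of the pair, 0.70, was 0.55 as Spearman's rho, 0.77 within feed-deprived goats, 0.32 within controls, 0.56 without the 2 goats farthest from the median of miR-132 (added after the data were seen) and 0.54 to 0.80 with 1 goat left out. The partner ranks of 18 and 19 became 11 and 12 when counted only against miRNAs with 10 CPM or more. miR-212 itself, at a mean of 6.48 CPM, lies below that limit. miR-409a, at -0.14, was 0.023 with library totals, 0.0094 in edgeR, 0.0087 in DESeq2 and -0.37 to 0.012 with 1 goat left out, and miR-365-3p, at -0.16, was 0.0028 with library totals. Of the markers, miR-126-5p was 0.107 and miR-133a 0.040 with library totals, and with 1 goat left out miR-126-5p ran from -0.093 to 6.4e-05, miR-133a from -0.381 to 0.283 and miR-486 from -0.060 to 0.349. The cause was not tested. No paired analysis was run, because the groups were separate goats and the labels give no pairing. The replicate numbers used here only name goats. Control reads of miR-212, 40 to 85 per library, limit what can be said of its level.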
